A study of Mus musculus with 24 samples.

Results

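The clustered protocadherin genes lie in 3 neighbouring arrays on mouse chromosome 18, named alpha, beta and gamma. Members were taken by symbol, as every gene called Pcdha, Pcdhac, Pcdhb, Pcdhga, Pcdhgb or Pcdhgc with a number and nothing else behind it. This gave 58 members, 14 in the alpha, 22 in the beta and 22 in the gamma cluster, which were set beside 22380 protein-coding genes of the annotation used here (GENCODE M1, on the mm9 build).

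Protocadherins are adhesion proteins of the cadherin family that sit on the cell surface and bind copies of themselves on neighbouring cells. In the alpha and gamma clusters each variable exon has a promoter of its own and encodes the outer part of the protein, and splicing joins it to constant exons that all members of the cluster share, whereas each beta gene is a single coding exon. They are best known from neurons, where a cell uses a few of the many promoters and so gains a surface identity, while the members called C-type, at the 3′ end of the alpha and gamma arrays, are used more uniformly.

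The marks were mapped by ChIP-seq in mouse embryos of a C57BL/6 x CD1 background. Progenitors of the supporting cell lineage were sorted at E10.5 from XY and from XX gonads carrying SF1-eGFP, Sertoli cells at E13.5 from XY gonads carrying Sox9-CFP, and pregranulosa cells (granulosa cells in the sample labels) at E13.5 from XX gonads carrying TESMS-CFP. H3, H3K4me3 and H3K27me3 were each precipitated in 2 replicates from pooled gonads, 24 samples in all, with fly chromatin added as carrier. The reporter changed with stage and, at E13.5, with sex, so its part in a difference between stages or between the E13.5 populations cannot be told apart from that of the cells.

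H3K4me3 marks promoters that are active or ready for use, and H3K27me3 is laid down by Polycomb repressive complex 2 at genes held silent. The values used here were 8 lists of called regions, 1 per mark and population, with H3 as the control and both replicates joined, so a list gives where a mark was called and not how strong it was, and no spread between replicates can be computed. No difference between populations was therefore tested. A member was called marked when a region overlapped the window of 2 kb to each side of its transcription start site (TSS), 4001 bp in all, by 1 bp or more. Bivalent here means a call of each mark at the same member.

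The lists differed in depth. H3K4me3 was called from 10162534 sequenced tags in XY progenitors, 49254553 in XX progenitors and 31104760 in Sertoli cells, and H3K27me3 from 6470151, 33185400 and 44446456 tags. The 2 pregranulosa lists carry no header, and their depth is unknown. The XY progenitor lists were thus the shallowest of the 6 with a known depth.

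Promoters of genes that define the populations were read first. Nr5a1, which encodes SF1, and the gonadal transcription factors Gata4 and Wt1 were bivalent in both progenitor populations and carried H3K4me3 alone in both E13.5 populations. Sox9 and Dmrt1, transcription factors of the testis pathway, had H3K4me3 alone in Sertoli cells and both marks in pregranulosa cells. Wnt4 and Rspo1, which signal in the ovarian pathway, showed the reverse, with both marks in Sertoli cells and H3K4me3 alone in pregranulosa cells.

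The other markers set limits to this reading. Foxl2, a transcription factor of granulosa cells, was bivalent in all 4 populations. At Amh, the Sertoli hormone that removes the Müllerian duct, H3K4me3 covered 3294 bp of the window in Sertoli cells and 944 bp in pregranulosa cells, where H3K27me3 covered 725 bp. Pou5f1, a germ cell gene, carried H3K27me3 in every list and H3K4me3 in Sertoli cells only, over 1001 bp, and Tbp, a general transcription factor, had H3K4me3 alone throughout. The endothelial and germ cell gene Pecam1 had neither mark in any list, and the leukocyte gene Tyrobp had no H3K4me3 in any list.

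Over all members, the share with H3K4me3 was below that of protein-coding promoters in general in each list, and no such difference was tested. H3K4me3 was present at 25 of 58 members in XY progenitors (43.1%, exact 95% binomial interval 30 to 57), against 64.2% of all promoters. It was present at 27 members in XX progenitors, against 66.0%, at 27 in Sertoli cells, against 64.9%, and at 30 in pregranulosa cells, against 66.3%. These intervals cover counting error only, and neighbouring members share regions.

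H3K27me3 was present at 23 members in XY progenitors (39.7%, 27 to 53) and at 20 in XX progenitors (34.5%, 22 to 48), against 23.1% and 24.8% of all promoters. At E13.5 it was present at 8 members in Sertoli cells (13.8%, 6 to 25) and at 6 in pregranulosa cells (10.3%, 4 to 21), against 23.5% and 23.6%. In XX progenitors and Sertoli cells the share of all promoters lay inside the interval of the members. The share over all promoters was nearly level between stages while the count over the members dropped.

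Bivalent members numbered 17 in XY progenitors, against 20.4% of all promoters, 17 in XX progenitors, against 22.4%, 7 in Sertoli cells, against 18.7%, and 6 in pregranulosa cells, against 20.4%. The same 6 members were bivalent in all 4 populations, against 13.6% of all promoters. These were Pcdhac1 and Pcdhac2 of the alpha cluster and Pcdhgb6, Pcdhga10, Pcdhgb7 and Pcdhga11 of the gamma cluster. No other member kept H3K27me3 in every list, against 15.9% of all promoters, and 34 members had it in none, against 67.1%. With regions wider than a single peak only, a setting chosen after seeing the data, 6 members were bivalent in XY progenitors and 13 in XX. Sertoli and pregranulosa cells then had 6 each, so the drop in bivalent members in XY cells was absent. The setting took H3K4me3 in XY progenitors from 25 members to 12, as single peaks made up 48.2% of that list. H3K27me3 was still present at 16 members in XY progenitors and at 8 in Sertoli cells. The shares of all promoters were not computed under this setting.

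H3K4me3 alone was found at 8 members in XY progenitors, against 43.8% of all promoters, at 10 in XX progenitors, against 43.6%, at 20 in Sertoli cells, against 46.2%, and at 24 in pregranulosa cells, against 46.0%. H3K27me3 alone was found at 6 members, against 2.66%, at 3, against 2.43%, at 1, against 4.8%, and at 0, against 3.26%, in the same order. Neither mark was found at 27 members, against 33.1%, at 28, against 31.6%, at 30, against 30.3%, and at 28, against 30.4%. The bare share thus moved little, and the members that lost H3K27me3 mostly came to carry H3K4me3 alone.

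At the other end, 19 of 58 members had neither mark in any list, against 26.2% of all promoters, and 6 of them were Pcdha and 13 Pcdhb genes. No gamma member was among them.

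**Figure D1:**
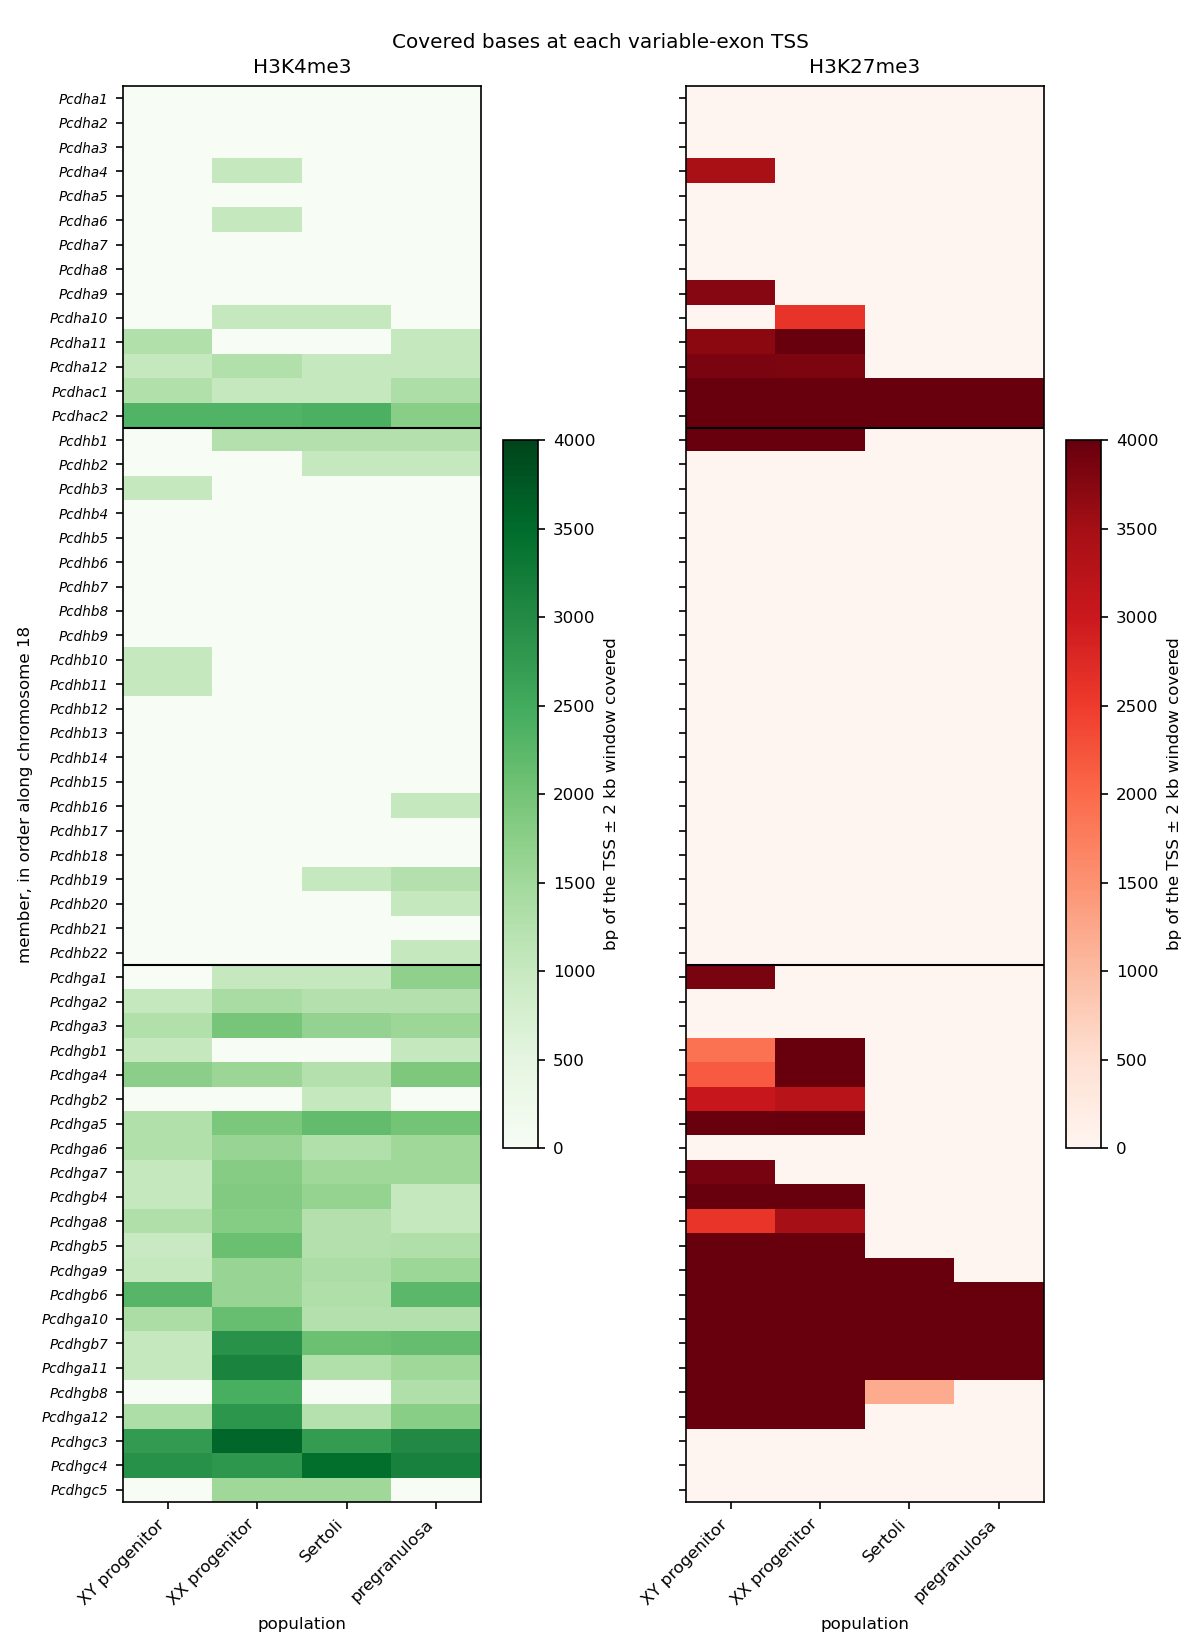
Bases of the TSS ± 2 kb window covered by H3K4me3 (left) and H3K27me3 (right) at each of the 58 members, in order along chromosome 18, in the 4 populations; black lines part the 3 clusters and the color scale runs from 0 to the whole window of 4001 bp. H3K4me3 is seen at most gamma rows in every list, and H3K27me3 is dark at Pcdhac1 and Pcdhac2 in all 4 lists and over fewer gamma rows at E13.5 than at E10.5.

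The C-type members split by cluster. Pcdhac1 and Pcdhac2, the last 2 exons of the alpha array, were bivalent in all 4 populations, with H3K27me3 over the whole 4001 bp of both windows in every list. Pcdhgc3 and Pcdhgc4, in the matching place of the gamma array, had H3K4me3 in every list and H3K27me3 in none. The alpha and gamma C-type exons thus had different states, each the same in all 4 populations but for Pcdhgc5 and, under the settings given below, Pcdhac1.

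At Pcdhac2 (TSS at position 37303623), the H3K27me3 region was 12.8 kb wide in XY progenitors, 12.6 kb in XX progenitors, 14.0 kb in Sertoli cells and 13.3 kb in pregranulosa cells. H3K4me3 covered 2334, 2333, 2379 and 1752 bp of its window in the same order. The region and its width thus changed little from list to list.

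Pcdhac1 (37249790) lay in a separate H3K27me3 region that was 6.25 kb wide in XY progenitors and 9.55 kb in pregranulosa cells. Its H3K4me3 covered 1281, 1001, 1001 and 1315 bp of the window in XY progenitors, XX progenitors, Sertoli and pregranulosa cells. A width of 1001 bp is the peak size that the headers give for H3K4me3, so such a region holds a single peak of the caller. With regions wider than a single peak only, a setting chosen after seeing the data, Pcdhac1 had H3K27me3 alone in XX progenitors and Sertoli cells. When the Sertoli H3K27me3 list was cut to its 9309 widest regions, as many as XX progenitors have, its region of 6.25 kb was lost. With the widest 75% of the regions of each list, Pcdhac1 had H3K27me3 alone in XX progenitors and neither mark in Sertoli cells.

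Pcdhgc3 (37966064) lay in H3K4me3 regions of 4339 bp in XY progenitors, 5604 bp in XX progenitors, 4361 bp in Sertoli cells and 5228 bp in pregranulosa cells. These were the widest at any member except in XX progenitors, where a region shared by Pcdhgb7 and Pcdhga11 was 5717 bp wide and the one downstream of Pcdhgc5 wider still. At Pcdhgc4 (37974733), H3K4me3 covered 2901, 2798, 3455 and 3142 bp of the window. Both stood above the median of the marked gamma A and B members, which was 1134, 1839, 1275 and 1517 bp in the same order of populations.

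Pcdhgc5 (37979200), the last exon of the locus, had H3K4me3 in XX progenitors and Sertoli cells and was unmarked in XY progenitors and pregranulosa cells. In the lists that mark it, the TSS lay in a region of 1001 bp, and a second region followed downstream, 6648 bp wide in XX progenitors and 2909 bp in Sertoli cells. In pregranulosa cells a region of 1838 bp began 22 bp beyond the window, and in XY progenitors 1 of 1001 bp began 234 bp beyond it. The difference in this call thus rests on the region at the TSS itself and on where the window ends.

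The gamma A and gamma B exons, 19 in number, are interspersed along the array, and most of them were marked by H3K4me3. It was present at 16 of the 19 in XY progenitors, 17 in XX progenitors, 17 in Sertoli cells and 18 in pregranulosa cells, against 64.2%, 66.0%, 64.9% and 66.3% of all promoters. In all, 15 of the 19 had it in every list, which made up most of the 20 members that did, against 61.9% of all promoters. In Sertoli and pregranulosa cells each marked exon had a region of its own. Its midpoint lay a median of 246 bp downstream of the TSS used in Sertoli cells and 284 bp in pregranulosa cells. For most of these exons no TSS was annotated, and the distance is from the start of the reading frame. In XX progenitors Pcdhgb7 and Pcdhga11 shared a region.

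Pcdhga5 (37854155) had the most H3K4me3 of the gamma A members summed over the lists. It covered 1266 bp of the window in XY progenitors, 1914 bp in XX progenitors, 2169 bp in Sertoli cells and 1985 bp in pregranulosa cells. Among the gamma B members Pcdhgb7 (37911433) had the most, with 1001, 2879, 2076 and 2135 bp, and its window overlaps that of Pcdhga11. XY progenitors, with the shallowest list, were the lowest for both genes.

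Of the gamma A members, only Pcdhga1 lacked H3K4me3 in a list, that of XY progenitors, where H3K27me3 covered 3857 bp of its window. Pcdhga1 (37821599) is the first exon of the gamma array, and it had 1001, 1001 and 1699 bp of H3K4me3 and no H3K27me3 in XX progenitors, Sertoli and pregranulosa cells. The gamma B members varied more. Pcdhgb1 (37840112) had H3K4me3 in XY progenitors and pregranulosa cells, Pcdhgb2 (37849612) in Sertoli cells and Pcdhgb8 (37921533) in XX progenitors and pregranulosa cells, and the remaining 4 had it in every list.

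H3K27me3 was common at these exons at E10.5. All 7 gamma B members had it in both progenitor populations, and 9 of 12 gamma A members in XY progenitors and 7 in XX progenitors, against 23.1% and 24.8% of all promoters. At E13.5 it was present at 3 gamma A and 3 gamma B members in Sertoli cells and at 2 and 2 in pregranulosa cells, against 23.5% and 23.6%. Pcdhga2, Pcdhga3 and Pcdhga6 were the gamma A members with H3K4me3 in every list and H3K27me3 in none, and they were named after their values were seen.

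The H3K27me3 of the gamma array formed a wide domain over the 3′ part of the gamma A and B exons, upstream of the C-type exons. It ran from position 37887432 to 37930687 in XY progenitors, 43.3 kb, and from 37886722 to 37930491 in XX progenitors, 43.8 kb, so that 99.5% of the XY domain and 98.4% of the XX domain were shared. It held the same 8 TSSs in both, from Pcdhgb5 to Pcdhga12. In each of these lists it ranked 2 by width among the H3K27me3 regions of chromosome 18, of 286 in XY and 230 in XX progenitors. Over the whole lists it ranked 105 of 9693 in XY and 408 of 9309 in XX progenitors.

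In Sertoli cells the domain ran from 37892900 to 37920728, 27.8 kb, and held 5 TSSs, from Pcdhga9 to Pcdhga11. In pregranulosa cells it ran from 37898653 to 37918169, 19.5 kb, and held 4 TSSs, from Pcdhgb6 to Pcdhga11. Each E13.5 domain lay wholly inside both E10.5 domains, and the pregranulosa domain wholly inside the Sertoli domain. The pregranulosa H3K27me3 list held 12609 peaks, none of which overlapped. The XY progenitor, XX progenitor and Sertoli lists held 36469, 74001 and 74154 peaks, joined here into 9693, 9309 and 13313 regions. The thresholds of the pregranulosa list are unknown, and the part of this difference in the domain edges was not tested.

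The 5′ edge at E10.5 depends on how regions are joined, as the next region upstream ended 1491 bp away in XY progenitors and 508 bp away in XX progenitors. With regions within 5 kb merged, a setting chosen after seeing the data, the domain was 58.0 kb wide with 11 TSSs in XY progenitors and 53.7 kb wide with 10 in XX progenitors, and it was unchanged in both E13.5 populations.

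Both ends had moved inward under either setting. Against the XY progenitor domain, the Sertoli domain began 5.47 kb further in and ended 9.96 kb earlier, and against the XX progenitor domain, the pregranulosa domain began 11.9 kb further in and ended 12.3 kb earlier. The 19.5 kb common to all 4 lists are those of the pregranulosa domain. By width the domain ranked 10 of 380 regions of chromosome 18 in Sertoli cells and 37 of 357 in pregranulosa cells. Over the whole lists it ranked 745 of 13313 and 1790 of 12609.

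H3K4me3 regions were called inside the domain in every list. There were 9 of them over 10.9 kb in XY progenitors and 9 over 21.3 kb in XX progenitors, 5 over 7.25 kb in Sertoli cells and 4 over 7.30 kb in pregranulosa cells. In both E13.5 populations the number of H3K4me3 regions equalled the number of TSSs inside the domain. Pcdhgb6 (37901748), Pcdhga10 (37906842), Pcdhgb7 and Pcdhga11 (37915427) thus had 4001 bp of H3K27me3 in every list, with H3K4me3 of 1001 to 3120 bp inside it. With regions wider than a single peak only, Pcdhgb7 and Pcdhga11 had H3K27me3 alone in XY progenitors, and the calls of Pcdhgb6 and Pcdhga10 were unchanged.

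The members at the edges of the domain changed state. Pcdhga9 (37896590) was bivalent in both progenitor populations and in Sertoli cells and had H3K4me3 alone in pregranulosa cells, where the domain began 63 bp beyond its window. Pcdhgb8, with 4001 bp of H3K27me3 in both progenitor populations, had 1196 bp in Sertoli cells and none in pregranulosa cells. Pcdhgb5, the first TSS of the E10.5 domain, had no H3K27me3 in Sertoli cells, where the domain began 92 bp beyond its window.

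**Figure D2:**
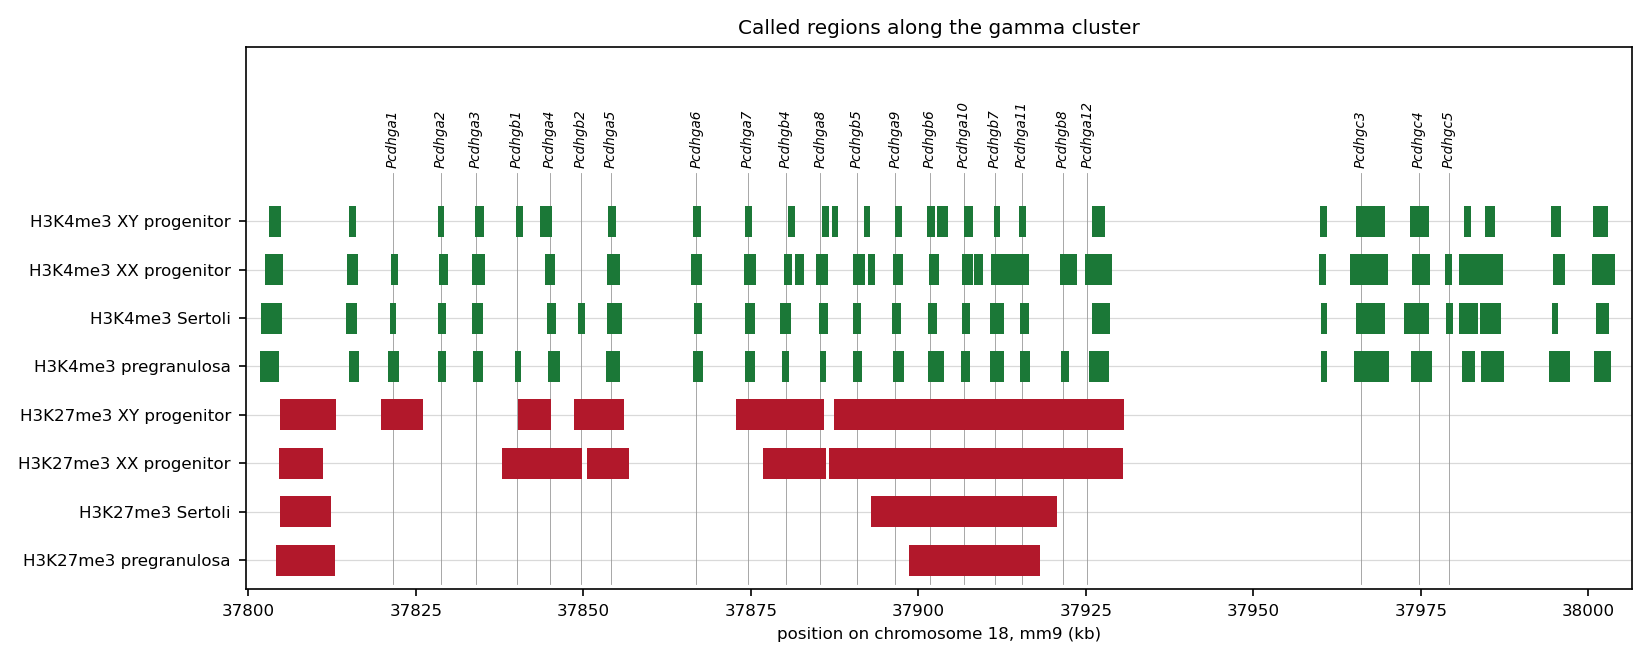
Regions called for H3K4me3 (green) and H3K27me3 (red) in the 4 populations along the gamma cluster, with position on chromosome 18 of mm9 in kb on the horizontal axis, 1 list per row and a grey line at each member TSS. The H3K27me3 domain is 43.3 and 43.8 kb wide in XY and XX progenitors, 27.8 kb in Sertoli cells and 19.5 kb in pregranulosa cells, and the C-type exons Pcdhgc3, Pcdhgc4 and Pcdhgc5 lie outside it in each list.

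Upstream of the domain, 4 further H3K27me3 regions touched gamma exons in XY progenitors and 3 in XX progenitors, and none did in Sertoli or pregranulosa cells. In XY progenitors they were 6.34 kb at Pcdhga1, 5.00 kb at Pcdhgb1 and Pcdhga4, 7.57 kb at Pcdhgb2 and Pcdhga5, and 13.2 kb at Pcdhga7, Pcdhgb4 and Pcdhga8. In XX progenitors they were 11.9 kb over Pcdhgb1, Pcdhga4 and Pcdhgb2, 6.25 kb at Pcdhgb2 and Pcdhga5, and 9.46 kb at Pcdhgb4 and Pcdhga8. The XX list had no region at Pcdhga1, and at Pcdhga7 its region began 156 bp beyond the window.

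The 12 Pcdha exons at the 5′ end of the locus carried few H3K4me3 calls. The mark was present at 2 of them in XY progenitors, 4 in XX progenitors, 2 in Sertoli cells and 2 in pregranulosa cells, against 64.2%, 66.0%, 64.9% and 66.3% of all promoters. H3K27me3 was present at 4, 3, 0 and 0, against 23.1%, 24.8%, 23.5% and 23.6%. The 4 calls in XY progenitors rested on single peaks of 5001 bp, and none was left with wider regions only. Pcdha1 (37089939), the first member of the array, had neither mark in any list. The marked exons lay chiefly at the 3′ end of the row, next to the C-type exons.

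Pcdha12 (37179884), the last of the row, was the only Pcdha exon with H3K4me3 in every list, over 1001, 1269, 1001 and 1001 bp of the window in XY progenitors, XX progenitors, Sertoli and pregranulosa cells. It was bivalent in both progenitor populations, with 3832 and 3817 bp of H3K27me3, and carried H3K4me3 alone in both E13.5 populations. The start of the annotated gene Gm10545 lies in the same window.

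Pcdha11 (37170512) had the most H3K27me3 of the Pcdha exons summed over the lists, 3691 bp of the window in XY progenitors and 4001 bp in XX progenitors. It had H3K4me3 in XY progenitors over 1267 bp and in pregranulosa cells over 1001 bp. Pcdha10 (37164974) had H3K4me3 over 1001 bp in XX progenitors and in Sertoli cells and 2608 bp of H3K27me3 in XX progenitors. No list had H3K4me3 at both of these neighbouring exons. Pcdha4 and Pcdha9, named after their values were seen, had H3K27me3 in XY progenitors only, over 3432 and 3745 bp.

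The 22 beta genes had few calls of either mark. H3K27me3 was present at Pcdhb1 alone, in the 2 progenitor populations, against 23.1% and 24.8% of all promoters. H3K4me3 was present at 3 genes in XY progenitors, 1 in XX progenitors, 3 in Sertoli cells and 6 in pregranulosa cells, against 64.2%, 66.0%, 64.9% and 66.3%. No beta gene had H3K4me3 in all 4 lists, and 13 had it in none, against 30.7% of all promoters.

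Pcdhb1 (37424652), the first gene of the array and set apart from the rest, had 3 states across the lists. H3K27me3 covered its whole window of 4001 bp in both progenitor populations, with no H3K4me3 in XY progenitors and 1253 bp in XX progenitors. In Sertoli and pregranulosa cells it had no H3K27me3 and 1256 and 1255 bp of H3K4me3. Its H3K27me3 regions were 5001 bp wide, a single peak of the size that the headers give for this mark.

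The other beta genes with H3K4me3 differed between lists. In XY progenitors they were Pcdhb3, Pcdhb10 and Pcdhb11, named after their values were seen, and none of these was marked in another list. Pcdhb2 and Pcdhb19, named likewise, were marked in Sertoli and in pregranulosa cells. Pcdhb16 (37637422), Pcdhb20 (37663926) and Pcdhb22 (37678007), the last gene of the array, were marked in pregranulosa cells only, each over 1001 bp.

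Regions of a single peak made up 3 of 3 at beta genes in XY progenitors, 0 of 1 in XX progenitors, 2 of 3 in Sertoli cells and 4 of 6 in pregranulosa cells. Over the whole H3K4me3 lists such regions made up 48.2%, 24.9%, 31.7% and 31.0%. Pcdhb17 and Pcdhb18, which stand on the study's lists of sex-specific genes, had neither mark in any of the 4 populations.

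Between E10.5 and E13.5 the members lost H3K27me3 and gained none. From XY progenitors to Sertoli cells, 15 of the 23 members with the mark lost it, against 22.8% of all promoters with the mark, and 0 gained it, against 7.42% of the unmarked. From XX progenitors to pregranulosa cells, 14 of 20 lost it, against 18.1%, and 0 gained it, against 4.38%. With regions wider than a single peak only, 8 of the 16 members with H3K27me3 lost it for XY and 12 of 18 for XX, and again 0 gained it. The shares of all promoters were not computed under that setting.

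In both sexes 10 of the members that lost it were gamma exons and 1 was Pcdhb1, and the rest were Pcdha exons, 4 in XY and 3 in XX cells. With regions wider than a single peak only, 0 alpha members lost it in XY cells and 2 in XX cells. Pcdhb1 was then unmarked at E10.5. The gamma members that kept it numbered 6 in Sertoli and 4 in pregranulosa cells, and all of their windows touched the domain. Pcdhac1 and Pcdhac2 kept it in both.

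With all regions kept, H3K4me3 changed at fewer members than H3K27me3 and in both directions. From XY progenitors to Sertoli cells 5 members lost it, against 3.2% of all marked promoters, and 7 gained it, against 7.74% of the unmarked. From XX progenitors to pregranulosa cells 4 lost it, against 2.15%, and 7 gained it, against 5.17%. Of the 7 gained in XX cells 5 were beta genes, and of the 7 in XY cells 3 were. With regions wider than a single peak only, the members with H3K4me3 went from 12 to 20 in XY cells and from 22 to 21 in XX cells. In XY cells 2 then lost it and 10 gained it, more than the 8 that lost H3K27me3. Single peaks are most frequent in the XY progenitor list, so that list lost the most calls by construction. With the widest 75% of regions, members with H3K4me3 went from 25 to 20 in XY and 22 to 21 in XX cells. This cut splits ties, and the rise turned to a fall in both sexes.

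Sertoli and pregranulosa cells differed in the state of 10 members. H3K27me3 accounted for Pcdhga9 and Pcdhgb8, which had it in Sertoli and not in pregranulosa cells, against 20.8% of promoters marked in Sertoli cells, and no member had it in pregranulosa cells only, against 6.55% of the unmarked. H3K4me3 was found in Sertoli cells only at Pcdha10, Pcdhgb2 and Pcdhgc5, against 1.69%, and in pregranulosa cells only at Pcdha11, Pcdhb16, Pcdhb20, Pcdhb22, Pcdhgb1 and Pcdhgb8, against 7.21%. At each of these but Pcdhgc5 and Pcdhgb8 the H3K4me3 covered 1001 bp.

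The XY and XX progenitors shared 19 members with H3K27me3, with 4 found in XY cells only, against 9.68% of the promoters marked there, and 1 in XX cells only, against 5.19%. They shared 20 members with H3K4me3, with 5 in XY cells only, against 1.51%, and 7 in XX cells only, against 7.77%. Depth differed between these lists, and its part was not tested. In this and the preceding comparison the shares of all promoters include X-linked genes, while all members lie on chromosome 18. The part of X-linked genes in these shares was not tested.

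Along the clusters, from 2 kb before the first TSS to the 3′ end of the last transcript, the gamma cluster was covered most by both marks. H3K27me3 covered 41.4% of its 182 kb in XY progenitors, 39.3% in XX progenitors, 15.3% in Sertoli cells and 10.7% in pregranulosa cells. Over chromosome 18 the same lists covered 2.66%, 2.39%, 4.32% and 4.37%. The cluster's share was lower at E13.5 while that of the chromosome was higher.

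H3K27me3 covered 15.0%, 12.7%, 7.83% and 8.81% of the alpha cluster (259 kb) in the same order, and what was left at E13.5 was the pair of regions at Pcdhac1 and Pcdhac2. In the beta cluster (258 kb) it covered 1.65% and 1.84% at E10.5 and 0 bp in both E13.5 lists. The beta value rests on the single region at Pcdhb1, and with regions wider than a single peak only it was 0.0% in both progenitor populations, while the alpha value in XY progenitors was 7.33%.

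H3K4me3 covered 19.2% of the gamma cluster in XY progenitors, 31.2% in XX progenitors, 23.5% in Sertoli cells and 26.0% in pregranulosa cells, against 2.19%, 3.14%, 2.68% and 3.15% of chromosome 18. It covered 4.05%, 3.97%, 3.48% and 2.95% of the alpha cluster. The beta cluster had 1.55%, 0.485%, 1.26% and 2.52%, below the chromosome in each list.

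**Figure D3:**
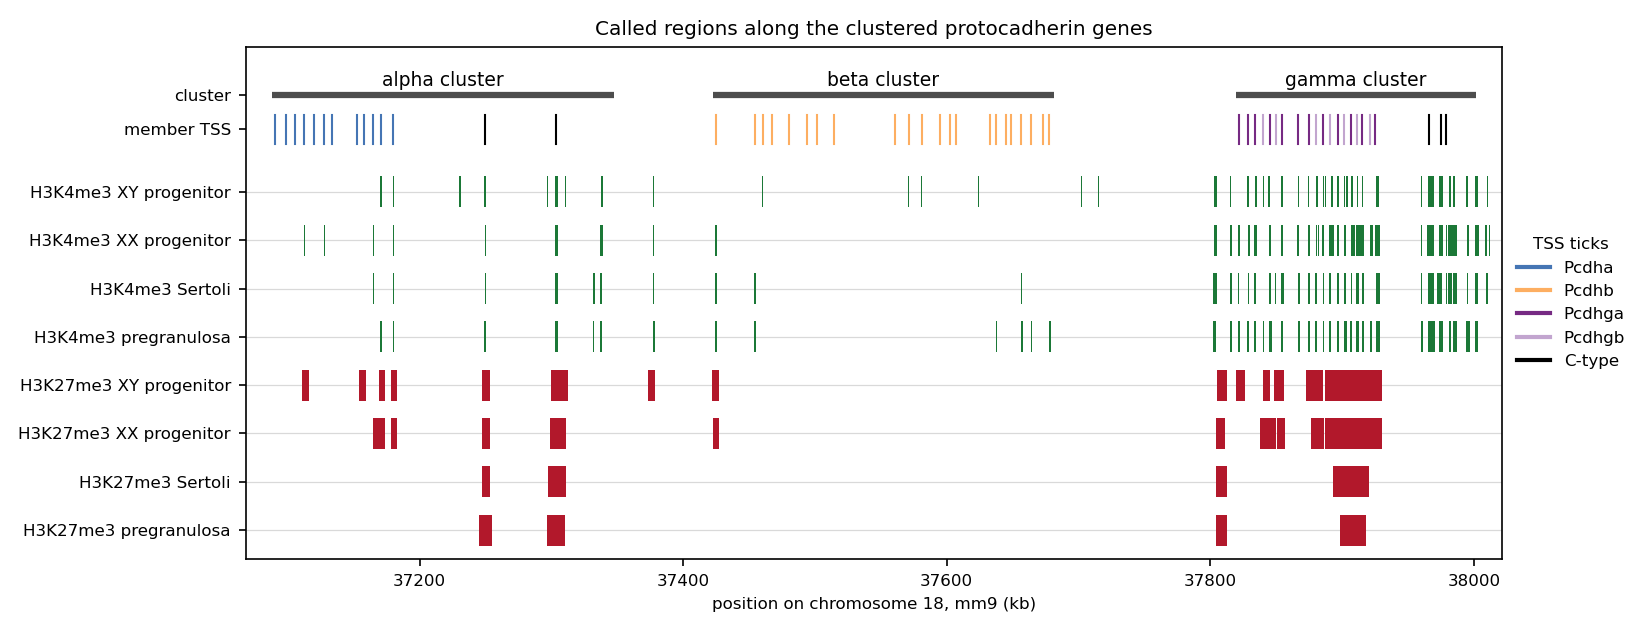
Regions called for H3K4me3 (green) and H3K27me3 (red) in the 4 populations along the 3 clusters, with position on chromosome 18 of mm9 in kb on the horizontal axis, 1 list per row, ticks for member TSSs and bars for the clusters. H3K27me3 covers 41.4% of the gamma cluster in XY progenitors and 15.3% in Sertoli cells, and the beta cluster holds few regions of either mark in any list.

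Some H3K4me3 between the members recurred in every list. Regions that touch a member TSS window were left out of this count, which gave 16 places from the first alpha to the last gamma exon. Of these, 7 were shared by all 4 lists and 6 were called in 1 list only, that of XY progenitors. The shared places included the start of the noncoding gene Gm10544 at 37336529 to 37339214, 3′ of Pcdhac2, and a place at 37376805 to 37378330 between the alpha and beta clusters. In the gamma cluster a place at 37959868 to 37961075, between Pcdhga12 and Pcdhgc3, and a pair of places 3′ of Pcdhgc5, at 37994073 to 37997266 and 38000615 to 38003989, were in every list. The last of these overlaps the end of the gamma constant exons and the neighbouring gene Diap1. Places at 37981222 to 37983059 and 37983841 to 37987451 were counted for 2 and 3 lists. Regions left out because they touch the Pcdhgc5 window overlapped them. These ran from 37980697 to 37987344 in XX progenitors and from 37980678 to 37983586 in Sertoli cells. With them, H3K4me3 was present at both places in every list.

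The members also differed in sequence. Within 500 bp of the TSS, the ratio of observed to expected CpG had a median of 0.721 over the Pcdha exons, 0.398 over the beta genes, 0.576 over gamma A, 0.658 over gamma B and 0.670 over the Pcdhgc exons. GC content was highest at Pcdhac2, with 67.3%, and was 57.4% at Pcdhac1 and 58.4% at Pcdhgc3. Of these CpG medians that of the beta genes was the lowest and that of the Pcdha exons the highest.

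Because variable exons resemble each other, reads of 1 exon can be hard to place. The share of 32-base words of the window that occur more than once in the genome had a median of 12.8% over the Pcdha exons, 6.55% over the beta genes, 2.83% over gamma A, 11.7% over gamma B and 0.252% over the Pcdhgc exons, and was 0 at Pcdhac1 and Pcdhac2. The effect of such repeats on the calls was not tested.

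Across the 58 members, the number of lists with H3K4me3 had a Spearman correlation of 0.647 with GC content, 0.369 with the CpG ratio and -0.503 with the repeated share. For H3K27me3 the values were 0.563, 0.453 and -0.12. These describe genes that neighbour each other, share regions and come from the same lists, and no p-value was computed. Within the 12 Pcdha exons H3K4me3 had correlations of 0.592, -0.016 and 0.258 with the same features in the same order, within the 22 beta genes 0.076, 0.051 and -0.319, and within the 19 gamma A and B exons 0.389, 0.199 and -0.447. For H3K27me3 they were 0.454, -0.414 and -0.02 within the Pcdha exons and 0.314, 0.425 and 0.423 within gamma A and B, and among the beta genes only Pcdhb1 had this mark. The values over all members were thus not those within each subgroup.

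Other genes were read in the same way, against the shares of all promoters given above. Of 18 flanking protein-coding genes within 200 kb, 15 had H3K4me3 in XY progenitors, against 64.2% of all promoters, and 16 in each other population, against 66.0%, 64.9% and 66.3%, and 3, 5, 3 and 2 had H3K27me3 in XY progenitors, XX progenitors, Sertoli and pregranulosa cells. Taf7, a general transcription factor gene between the beta and gamma clusters, was bivalent in all 4 populations, since a region of H3K27me3 beginning beside it reached 1051 to 1764 bp into its window. Arap3, a signalling gene, kept H3K27me3 in Sertoli cells over 4001 bp and had none in pregranulosa cells. Diap1, an actin regulator, and Hdac3, a histone deacetylase, had H3K4me3 alone in every list.

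The 12 non-clustered protocadherins, single genes elsewhere in the genome and on chromosome 18, were bivalent in 10, 10, 9 and 10 cases in the same order, against 20.4%, 22.4%, 18.7% and 20.4% of all promoters. Pcdh18 departed from the list with H3K4me3 alone in every population. Pcdh12, known from endothelial cells, had H3K4me3 alone in both progenitor populations and H3K27me3 alone in both E13.5 populations. Pcdh11x, on the X chromosome, had lost H3K27me3 in Sertoli cells. Single protocadherin genes thus mostly kept H3K27me3 at E13.5, whereas most clustered members that had it at E10.5 did not.

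Of 13 genes for proteins that act on the clusters, 12 had H3K4me3 in every population, against 61.9% of all promoters, Ctcf and the cohesin gene Rad21 among them with H3K4me3 alone throughout. Dnmt3b, a DNA methyltransferase that acts on variable promoters, was bivalent in both progenitor populations and had H3K4me3 alone at E13.5. Its relative Dnmt3a was bivalent in XY progenitors only. The X-linked cohesin gene Smc1a was bivalent in both XX populations, and Stag2, also X-linked, in XX progenitors. Stag1 had neither mark at its annotated TSS.

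Among signalling partners of the protocadherins, Ret, a receptor kinase that binds them, was bivalent in all 4 populations. The kinase gene Ptk2b was bivalent in every population but Sertoli cells, and Fyn, another kinase gene, at E10.5 only. Cyfip2, part of the WAVE complex that drives actin branching, was bivalent in XX progenitors and Sertoli cells. These are named because they departed from most of the list, which carried H3K4me3 alone.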

How the data were processed

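H3, H3K4me3 and H3K27me3 ChIP-seq had been done in 4 populations with 2 replicates each. The authors used Trim Galore for trimming, Bowtie for alignment to mm9, SAMtools for read files and HOMER for peaks, taking H3 as input. The study describes peak calling for each replicate, whereas the headers of 6 lists name tags of joined replicates. The pregranulosa lists are taken as joined by their labels. Versions are not given in the sources used here. Per the file headers of 6 of the 8 lists, peaks were sized 1000 bp (H3K4me3) or 5000 bp (H3K27me3), had to exceed input and surroundings 4 times over, and met a Poisson threshold of 1.00e-04. The deposited values used were the positions of peaks. The score column that the authors deposited is constant in these 6 lists and was not used as a level, and the pregranulosa lists have no such column.

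Overlapping peaks were joined into regions, and positions were counted from 1. GENCODE M1 merges the alpha and the gamma exons, so 25 of its symbols fit, against 58 in RefSeq (GRCm38.p6), which was used for names and spacing only. On mm9, 62 reading frames of at least 1900 bases were found, and 58 were matched by spacing from Pcdhb1, within 537 bp. All 23 GENCODE genes that are not merged had the same name. A TSS was annotated for 41 members, and for 17 the start of the reading frame was used. The steps were tested on simulated data.

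Members and lists were chosen with earlier results of these data known. Named members are the C-type members, the first and last of each array, those with the most of each mark per subgroup, Pcdhb17 and Pcdhb18, those bivalent in all populations and those that differ between Sertoli and pregranulosa cells. On short lists, genes that depart from most of the list are named. Flanking genes, markers and places between members were described after their values were seen. No test was run. Alternatives changed the overlap, window, regions kept, TSS, members counted or merging, and those added after seeing the data kept only annotated TSSs, used TSS ± 3 kb, merged regions for the gamma domain, kept only regions wider than a single peak or left out a list. Python 3.11.15, NumPy 2.4.6, SciPy 1.17.1 and matplotlib 3.10.9 were used.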

Additional observations from a re-analysis of the deposited data

Results flagged for a closer look

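Some changes from E10.5 to E13.5 went in opposite directions in XY and XX cells, and none of these differences was tested. H3K4me3 in the gamma cluster covered 7.71 kb more in Sertoli cells than in XY progenitors and decreased by 9.38 kb from XX progenitors to pregranulosa cells. In the beta cluster it decreased by 0.746 kb from XY progenitors to Sertoli cells and covered 5.26 kb more in pregranulosa cells than in XX progenitors. All H3K4me3 regions of the beta cluster in XY progenitors were single peaks. With wider regions only, none was left there while Sertoli cells kept 1256 bp at Pcdhb1, so the decrease became an increase. C-type members with H3K4me3 rose by 1 in XY cells and dropped by 1 in XX cells, in both cases Pcdhgc5. Depth went up from 10162534 to 31104760 tags in XY cells, and it is unknown for pregranulosa cells; its part in these differences was not tested.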

How the results depend on the processing

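No paired analysis was possible because each list joins both replicates and no result comes from a test, and for the same reason no replicate could be left out. Of 306 values for all members, cluster cover and the gamma domain recomputed under the alternatives, 272 stayed within 1.5 times of a count or length or within the exact 95% interval of a share taken over 1-kb bins. Of 504 further counts by cluster, 70 moved. Of the 306, all values stayed so with at least 500 bp of overlap, with TSS ± 1 kb, ± 500 bp or ± 3 kb, with the TSS base itself, with the start codon as TSS, with the variable exon array only and without the XY progenitor or the pregranulosa list. For the 17 members placed by reading frame the start codon is the TSS already used, so for these that setting is no test. The same holds for some annotated members, such as Pcdhac1 and Pcdhac2. Among counts by cluster, TSS ± 3 kb left 0 gamma members that lost H3K4me3 in XX cells. The TSS base left 8 bivalent gamma members in XY progenitors.

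Cutting lists by width was uneven, because many regions share the width of a single peak and the order of chromosome names decided which of these were kept. In the H3K4me3 lists cut to 37849 regions, 6488 of 10424 such regions were kept in XX progenitors, 11158 of 12361 in Sertoli cells and 7226 of 13726 in pregranulosa cells, so the unchanged H3K4me3 values there are no test. The cut of H3K27me3 to 9309 regions left 1 alpha member with the mark and 1 bivalent in Sertoli cells. Under the widest 75%, ties at the cut held 18231 H3K4me3 and 3449 H3K27me3 regions in XY progenitors. They held 12361 H3K4me3 regions in Sertoli and 13726 in pregranulosa cells, and the values that follow carry that limit.

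Keeping the widest 75% of regions left 9 members that lost H3K27me3 from XY progenitors to Sertoli cells, and 2 and 3 that gained H3K4me3 in XY and XX cells, while 7 and 4 lost it. The same setting put H3K27me3 over 7.33% of the alpha cluster in XY progenitors and 0.0% of the beta cluster in both progenitor populations, and H3K4me3 over 0.971% of the beta cluster in pregranulosa cells. Keeping only regions wider than a single peak has no ties. It left 12 members with H3K4me3 and 6 bivalent in XY progenitors, 2 that lost H3K4me3 and 8 that lost H3K27me3 in XY cells and 3 that gained H3K4me3 in XX cells. H3K27me3 covered 7.33% of the alpha cluster in XY progenitors and 0.0% of the beta cluster in both progenitor populations, and H3K4me3 12.6% of the gamma and 0.0% of the beta cluster in XY progenitors and 0.971% of the beta cluster in pregranulosa cells.

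Merging regions within 5 kb put H3K4me3 over 47.3%, 57.1%, 52.2% and 62.6% of the gamma cluster in XY progenitors, XX progenitors, Sertoli and pregranulosa cells, by joining regions of neighbouring exons. It also put the start of the gamma H3K27me3 domain 20.2 kb further in from XY progenitors to Sertoli cells and 21.9 kb from XX progenitors to pregranulosa cells, by joining upstream regions to the E10.5 domains. Without members whose windows overlap, 5 had H3K27me3 in Sertoli cells.

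Counting only the 41 members with an annotated TSS, which leaves out most gamma exons by construction, gave 15, 15, 16 and 18 with H3K4me3 in the same order, 12, 11 and 5 with H3K27me3 in XY progenitors, XX progenitors and Sertoli cells, and 9 and 10 bivalent in XY and XX progenitors. This count, TSS ± 3 kb, the merged domain, regions wider than a single peak and the settings without a list were chosen after seeing the data. Why the other values moved was not tested.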
